A study of Zea mays with 2 samples.

Results

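The regions described here are the MNase hypersensitive sites of the outermost 5 Mb of maize chromosomes, the tips of the arms next to the telomeres. A site was a member when its summit, the position of the highest signal in a called peak, lay in the first 5 Mb of chromosomes 1 to 5 or 7 to 10, or in the last 5 Mb of any of the 10 chromosomes. The first 5 Mb of chromosome 6 was outside the rule. This gave 19 ends, 9 first and 10 last, which span 95 Mb or 4.51% of the chromosome length. They held 4796 of the 66801 sites in the merged list, or 7.18%.

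The sites come from MH-seq, in which nuclei are treated with micrococcal nuclease (MNase) and the short fragments it frees are sequenced. The material was leaf of 10-day-old plants of B73, the inbred line of the maize reference genome. Tissue was collected from 10 plants, fixed with formaldehyde and digested with 100 U of MNase, which the protocol calls light beside a heavy digestion of 900 U that neither library is labelled with, and fragments of 40 to 100 bp were recovered. The 2 replicate libraries form a single group, and no control digestion, naked DNA or other tissue was analysed here. Replicate 1 had 74443 peaks, replicate 2 had 60518, and the authors' merged list serves both. The labels do not state that the replicates were collected separately, and variation among them can be technical.

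MNase cuts DNA that is not wrapped in nucleosomes or covered by protein, so short fragments released by a light digestion mark chromatin that is open. Such sites are commonly found at promoters and at other regulatory DNA. In maize, genes and meiotic crossovers lie mostly towards the chromosome ends, while the regions around the centromeres are rich in retrotransposons. Genes near the sites were not analysed here, since peak positions are on B73 RefGen_v4 and the genes available were placed on a different assembly, and no sequence of that build was used. Density below therefore means called peaks per Mb of assembly, and how well reads can be placed at the ends was not tested.

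Every end carried more sites per Mb than the rest of its own arm. The question here was whether the terminal 5 Mb differs from what lies between it and the centromere, whose position was taken to the nearest 1 Mb from general knowledge of the assembly. The ends held 50.5 ± 7.89 summits per Mb and the rest of the arms 30.3 ± 3.86 (mean ± SD, n = 19 ends). The log2 ratio was 0.71 ± 0.23 (mean ± SD over 10 chromosomes, each with the mean of its ends), a 1.64-fold difference. All 10 chromosomes had a ratio above 0 (two-sided exact permutation test by sign flips over chromosomes, p = 0.00195, the smallest this design allows). The chromosomes share the same pair of libraries, so this p speaks to the spread between chromosomes and not between plants.

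Both replicate lists showed the same order. In replicate 1 the ends held 54.6 ± 9.03 summits per Mb against 33.9 ± 4.10 in the rest of the arms (n = 19 ends), a log2 ratio of 0.66 ± 0.21 (exact sign-flip permutation p = 0.00195). In replicate 2 they held 46.3 ± 8.25 against 27.4 ± 3.60, a log2 ratio of 0.73 ± 0.23 (exact sign-flip permutation p = 0.00195). All 19 ends were denser than the rest of their arm in each of the 3 lists. The exact binomial 95% interval of the ratio, which covers counting error only, lay above 1 at all 19 ends in each list.

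The ends were far from uniform among themselves. The start of chromosome 5 was the densest, with 318 merged sites, 346 in replicate 1 and 309 in replicate 2, and it ranked first in all 3 lists. In the order of the merged list, next came the start of chromosome 2 with 316 merged sites, 338 in replicate 1 and 288 in replicate 2. The end of chromosome 8 followed with 299 merged sites, 340 in replicate 1 and 281 in replicate 2. At the other extreme stood the end of chromosome 1, the lowest in the merged list, with 201 merged sites, 225 in replicate 1 and 187 in replicate 2, and the start of chromosome 8, the lowest in both replicate lists, with 208 merged sites, 214 and 179. Across the 19 ends the mean was 252 ± 39.4 merged sites (SD), and the median was 234. Replicate 1 had the higher count at all 19 ends. Both libraries placed the start of chromosome 5 above that of chromosome 2, and no test was made between single ends.

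**Figure D1:**
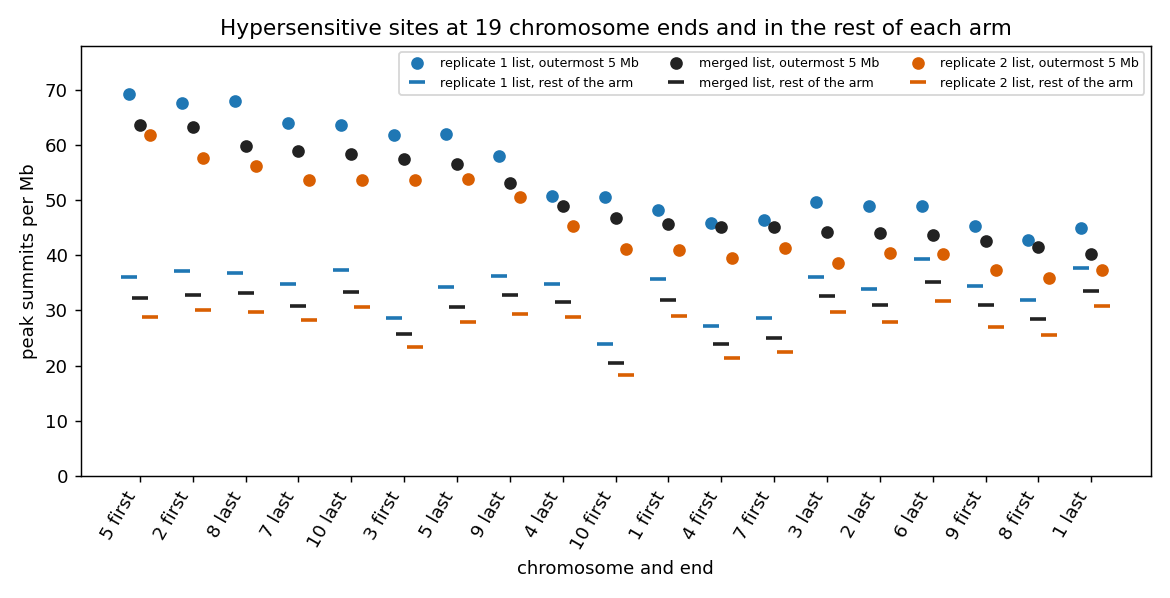
Peak summits per Mb at each of the 19 chromosome ends (circles) and in the rest of the same arm (bars), in the merged list and in each replicate list, with the ends ordered by their merged count. Every circle lies above the bar of its own list, from the start of chromosome 5 (63.6 merged summits per Mb against 32.2) to the end of chromosome 1 (40.2 against 33.6).

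The size of the excess varied between arms. In the merged list the largest ratio belonged to the start of chromosome 10, 2.29 (exact 95% interval 1.98 to 2.64), where the end held 46.8 summits per Mb and the rest of the arm 20.4. The second largest, at the start of chromosome 3, was 2.24 (1.97 to 2.53), from 57.4 and 25.7 summits per Mb. The smallest ratios were at the ends of chromosome 1, 1.20 (1.03 to 1.38), and chromosome 6, 1.24 (1.08 to 1.42). On chromosome 6 the rest of the long arm held 35.2 summits per Mb, the highest of any arm. In both replicate lists the order of the leading pair was the other way round, with 2.16 at the start of chromosome 3 and 2.12 at that of chromosome 10 in replicate 1, and 2.29 and 2.26 in replicate 2. The count at the start of chromosome 10, 234 merged sites, was the median of the 19 ends.

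The excess was not confined to the outermost 5 Mb. The 5 Mb just inside the limit held 50.7 ± 11.4 summits per Mb against 50.5 ± 7.89 in the ends (n = 19). With those inner 5 Mb in place of the whole rest of the arm, the log2 ratio was -0.01 (exact sign-flip permutation p = 0.883), and 6 of the 19 inner windows held more sites than the end beside them. From there density declined step by step, to 47.0 ± 9.43 at 10 to 15 Mb, 40.2 ± 9.38 at 20 to 25 Mb, 34.9 ± 9.46 at 30 to 35 Mb and 30.9 ± 9.89 at 40 to 45 Mb. Replicate 1 fell from 54.6 to 34.5 and replicate 2 from 46.3 to 28.4 summits per Mb over the same distance. Of 385 windows of 5 Mb that fit in the rest of the arms, 38 (9.87%) held more sites than the median end and 78 (20.3%) more than the sparsest end.

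Within the ends, density rose from the tip inward. The outermost 1 Mb held 36.9 ± 11.6 merged summits, the second 47.1 ± 13.9, the third 55.2 ± 14.3, the fourth 54.4 ± 13.3 and the fifth 58.8 ± 15.7 (mean ± SD, n = 19). The outermost 1 Mb was sparser than the mean of the next 4 at 15 of the 19 ends in the merged list and at 16 in each replicate list. The exceptions in the merged list were both ends of chromosome 3 and the starts of chromosomes 8 and 9. Even so, the outermost 1 Mb exceeded the density of the rest of the arm at 12 of 19 ends in each of the 3 lists. This rise was noticed in the data and was not tested. At the last ends the outermost 1 Mb held 32.3 ± 7.04 summits (n = 10) and the next 4 Mb 55.4 ± 9.55 per Mb, while at the first ends the values were 42.0 ± 13.7 and 52.2 ± 10.7 (n = 9).

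**Figure D2:**
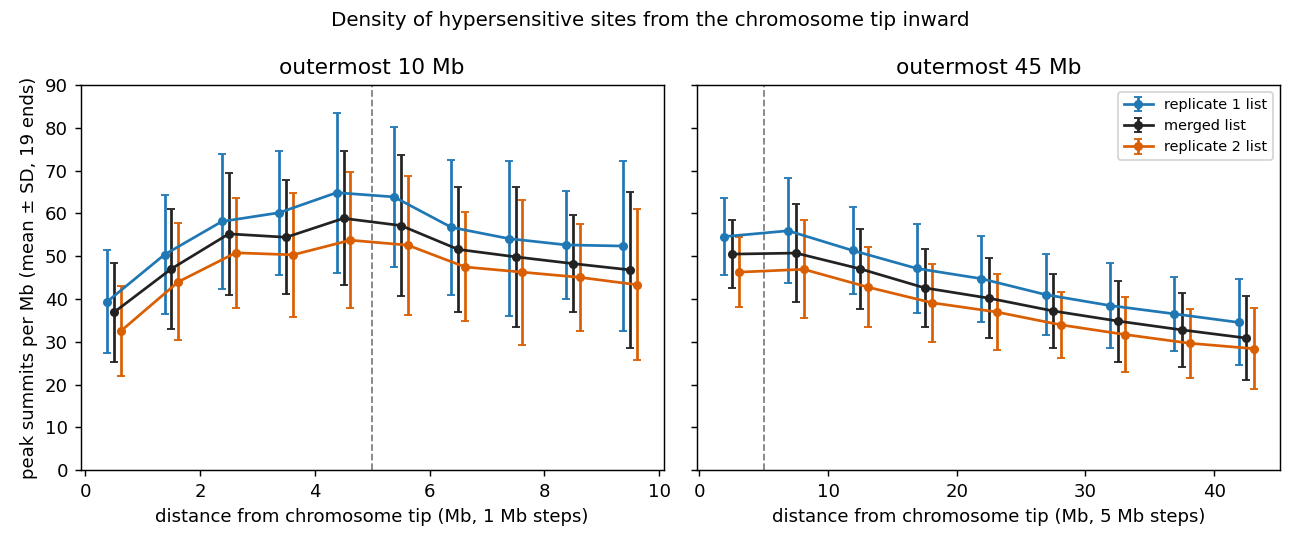
Peak summits per Mb against distance from the chromosome tip, in 1 Mb steps over 10 Mb (left) and in 5 Mb steps over 45 Mb (right), as mean ± SD over the 19 ends for each list, with the 5 Mb limit dashed. Merged density climbs from 36.9 in the outermost 1 Mb to 58.8 in the fifth, stays near 50 over the first 10 Mb as a whole, and declines to 30.9 at 40 to 45 Mb.

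The limit of 5 Mb fell in the densest stretch. The last 0.5 Mb inside it held 564 merged sites over the 19 ends, with a median fold enrichment of 7.16, and the first 0.5 Mb outside held 554, with a median of 6.88. The densest single step of 1 Mb within an end lay 4 to 5 Mb from the tip of the end of chromosome 7, with 97 merged sites, 106 in replicate 1 and 97 in replicate 2. Next in the merged list was the step 2 to 3 Mb from the tip at the end of chromosome 5, with 79 merged sites, 84 and 71. In the merged list the sparsest step was the outermost 1 Mb at the start of chromosome 4, with 19 merged sites, 19 in replicate 1 and 20 in replicate 2. In replicate 2 the lowest count was 17, in the step 3 to 4 Mb from the tip of the end of chromosome 3 and in the outermost 1 Mb of the end of chromosome 7. The start of chromosome 4 also had the longest stretch between neighbouring merged summits, 526 kb from 1872704 to 2398392, which held 1 summit of each replicate. The end of chromosome 6 had a stretch of 352 kb, from 173387758 to 173739329, with 2 summits of replicate 1 and 0 of replicate 2.

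No difference between first and last ends passed the test. The 9 first ends held 50.1 ± 8.77 summits per Mb, and the last ends of the same chromosomes 51.6 ± 7.46. The log2 ratio of last to first was 0.05 ± 0.37, above 0 on 5 of 9 chromosomes (two-sided exact sign-flip permutation p = 0.719, where the smallest possible is 0.00391). Chromosomes departed from this mean in both directions: the start led on chromosome 2 (316 against 220 merged sites), and the last end on chromosome 8 (299 against 208). The start of chromosome 6, on the short arm that carries the nucleolus organizer in maize, held 177 merged sites in 5 Mb, 193 in replicate 1 and 141 in replicate 2. That is below the count of every member end in each list.

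At the ends, neighbouring sites were more often 5 to 20 kb apart and less often over 100 kb apart. The median distance from a merged summit to the next was 8.30 kb at the ends and 11.4 kb in the rest of the arms. It was shorter than in the rest of the same arm at 18 of 19 ends in the merged list, at 17 in replicate 1 and at 15 in replicate 2. The exception in the merged list was the start of chromosome 8, with a median of 13.6 kb against 11.1 kb. Distances of 5 to 20 kb made up 34.9% of those at the ends and 25.5% of those in the rest, and the share was higher at 19 of 19 ends (replicate 1: 34.1 and 26.0%, 19 of 19 ends; replicate 2: 34.6 and 24.6%, 17 of 19 ends). Distances over 100 kb were rare at the ends, 2.28% against 8.04%, and rarer than in the rest of the arm at 19 of 19 ends in each list. Under random spacing a difference in density would by itself shift these shares. Random spacing at an even density over each part would put 41.3% of distances at 5 to 20 kb at the ends and 31.9% in the rest. Above 100 kb it would put 0.642 and 4.48%. The distance classes were set with the distances known and carry no test.

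**Figure D3:**
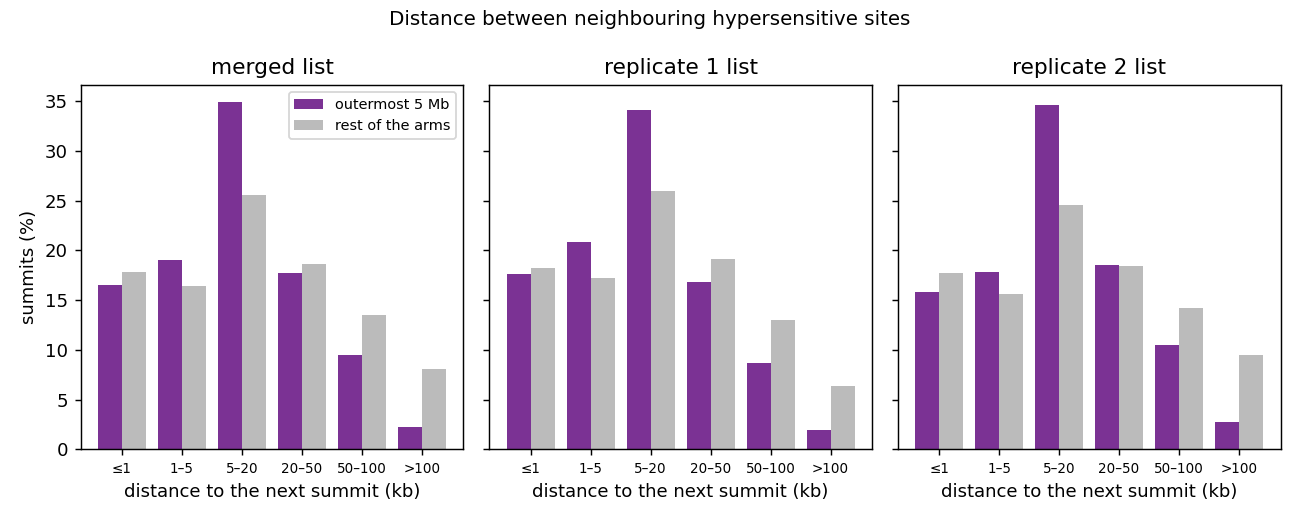
Share of summits (%) by distance to the next summit on the chromosome (kb), at the ends and in the rest of the arms, for the merged list and each replicate list. At 5 to 20 kb the ends exceed the rest in each list (34.9 against 25.5% in the merged list), and above 100 kb the rest exceeds the ends (8.04 against 2.28%).

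Close pairs were not a larger share of the sites at the ends as a whole, despite their density. At the ends 790 of 4796 merged summits (16.5%) had the next summit within 1 kb, against 17.8% of all merged summits. Over chromosomes the share was 16.5 ± 1.63% at the ends and 17.9 ± 0.678% in the rest of the arms (n = 10), a difference of -1.40 ± 1.70 percentage points. On 7 of 10 chromosomes the ends had the lower share (exact permutation p = 0.0293, adjusted 0.112 by Benjamini-Hochberg over 5 properties), which did not pass the threshold of 0.05. Random spacing at the same density would give 4.92% at the ends and 3.06% in the rest, so the observed shares were 3.35 and 5.84 times those values. The ratio was 3.32 and 5.35 in replicate 1, and 3.49 and 6.39 in replicate 2. Random spacing here takes an even density over each part. In the rest of the arms windows of 5 Mb held 28 to 355 merged sites, which these ratios do not allow for. In the replicate 2 list alone the difference was -1.94 points, with an adjusted exact permutation p of 0.0488. Within 5 kb the difference turned positive, 1.16 points (adjusted exact permutation p = 0.205). Inside the ends the merged share within 1 kb was uneven. It was 22.4% in the outermost 0.5 Mb, 15.2% at 0.5 to 1 Mb and 12.8% at 1 to 2 Mb. From 2 to 5 Mb the 1 Mb steps held 15.9 to 18.0%, and these steps were not tested.

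No difference in fold enrichment or width between sites at the ends and in the rest of the arms passed the threshold. Fold enrichment is the authors' own value for each peak over its background, and no deposited peak has less than 5. Merged sites had a median of 7.29 at the ends and 7.50 in the rest of the arms. Replicate 1 had 7.60 and 7.57, and replicate 2 had 7.14 and 7.31. The median −log10 q was higher at the ends in each list, which was not tested. It was 40.5 against 39.0 in the merged list, 26.7 against 24.4 in replicate 1 and 22.7 against 21.7 in replicate 2. Per chromosome the median log2 fold enrichment was 2.86 ± 0.05 at the ends and 2.91 ± 0.02 in the rest (n = 10), a difference of -0.04 ± 0.06, with the ends lower on 8 of 10 (exact permutation p = 0.0449, adjusted 0.112). In the replicate 1 list this difference was 0.00088, so the direction rested on the merged and replicate 2 lists. Median width per chromosome was 216 ± 7.51 bp at the ends and 221 ± 3.40 bp in the rest, a difference of -4.65 ± 8.78 bp (exact sign-flip permutation p = 0.137, adjusted 0.171), and in replicate 1 the difference was 4.95 bp in the other direction. Peaks covered 1.21% of the bases at the ends and 0.766% in the rest.

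Narrow sites, under 130 bp, numbered 1022 of the 4796 members (21.3%, Wilson 95% interval 20.2 to 22.5%), against 22.8% of all merged sites. Per chromosome their share was 21.6 ± 3.09% at the ends and 22.8 ± 1.08% in the rest of the arms (n = 10), a difference of -1.16 ± 3.08 points (exact sign-flip permutation p = 0.266, adjusted 0.266). The chromosomes were divided, with 4 above 0 and 6 below. In the replicate 1 list the difference was -3.88 points and passed the threshold (adjusted exact permutation p = 0.0488), and in replicate 2 it was -0.52 points (adjusted 0.518). With ends of 5 Mb, none of the 5 properties compared in the merged list passed the adjusted threshold, and 2 of them had an unadjusted p below 0.05. With ends of 2 Mb, the differences in width (-16.2 bp) and in close pairs (-2.77 points) passed it (both with an adjusted exact permutation p of 0.0488), while those in narrow share (1.49 points) and in the share found in both replicates (-0.33 points) changed sign and did not pass.

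Most members were found in both replicates. A counterpart, meaning an overlap of at least 1 bp, was present in both replicate lists for 3754 members (78.3%, Wilson 95% interval 77.1 to 79.4%), against 76.5% of all merged sites. A further 711 (14.8%) overlapped replicate 1 alone, 271 (5.65%) replicate 2 alone, and 60 (1.25%) neither list. Per chromosome the share in both was 78.1 ± 2.42% at the ends and 76.6 ± 1.09% in the rest of the arms (n = 10), a difference of 1.50 ± 2.77 points, with the ends higher on 7 of 10 (exact permutation p = 0.119, adjusted 0.171). The highest shares were at the start of chromosome 5 (84.0%), the end of chromosome 9 (83.8%) and the end of chromosome 5 (83.0%). The lowest was at the start of chromosome 4 (72.6%). Since the merged list serves these same libraries, its agreement with them is not independent of them.

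Read directly between the replicates, 3800 of the 5184 replicate 1 peaks at the ends overlapped a replicate 2 peak (73.3%, Wilson 95% interval 72.1 to 74.5%), against 69.4% (69.1 to 69.8%) in the rest of the arms. In the other direction it was 3840 of 4396 (87.4%, 86.3 to 88.3%) against 86.6% (86.3 to 86.9%). Among peaks with a −log10 q of at least 10 the shares were nearly equal, 75.6% at the ends against 75.3% in the rest for replicate 1 and 89.9% against 89.7% for replicate 2. Peaks are not independent of one another, so the intervals cover counting error only. The replicate 1 list held 1.18 peaks for each replicate 2 peak at the ends and 1.23 in the rest, and the ratio was lower than in the rest of the arm at 18 of 19 ends. With the same limit on −log10 q the ratio was 1.18 in both, so this difference lay among peaks of lower −log10 q. Where both replicates had a counterpart, their summits were 13 bp apart in the median at the ends and 14 bp in the rest. In 83.5% of these 3754 members the summits were within 50 bp, against 82.8% of such sites in the rest of the arms.

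Recurrence followed peak strength at the ends as elsewhere. Sites were ranked by fold enrichment over the whole merged list and divided into 5 equal classes. At the ends the share found in both replicates was 30.2% in the weakest class (Wilson 95% interval 27.4 to 33.2%), 73.6% in the second, 93.7% in the third, 98.1% in the fourth and 98.9% in the strongest (97.9 to 99.4%). In the rest of the arms the shares were 23.7% (23.0 to 24.5%), 68.2%, 93.1%, 98.5% and 99.2% (99.1 to 99.4%). The share was higher at the ends in the 3 weakest classes and lower in the other 2, and these differences were not tested. The strongest class made up 18.1% of the members and 20.1% of sites in the rest of the arms.

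In the outermost 0.5 Mb a larger share of sites was narrow and a smaller share recurred. Over the 19 ends it held 340 merged sites, of which 118 (34.7%, Wilson 95% interval 29.8 to 39.9%) were narrow, against 20.3% (19.1 to 21.5%) of the 4456 members further in. In the merged list the narrow share was higher at 18 of 19 ends. In the replicate lists it was 44.0% against 29.4% for replicate 1 (higher at 18 of 19 ends) and 42.5% against 30.0% for replicate 2 (15 of 19 ends). Of the 340 sites 233 (68.5%, 63.4 to 73.2%) were found in both replicates, against 79.0% (77.8 to 80.2%) further in, with a lower share at 17 of 19 ends. Of replicate 1 peaks 65.3% overlapped a replicate 2 peak, against 73.9% further in, lower at 16 of 19 ends. In the other direction it was 80.8% against 87.8%, lower at 15 of 19 ends. In the merged list median fold enrichment was 7.39 in the outermost 0.5 Mb and 7.28 further in, and the median width was 180 bp against 219 bp. In the outermost 0.5 Mb 22.4% of merged summits had the next within 1 kb, against 17.9% in the rest of the arms. This limit was set with the values known, and no test was made.

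**Figure D4:**
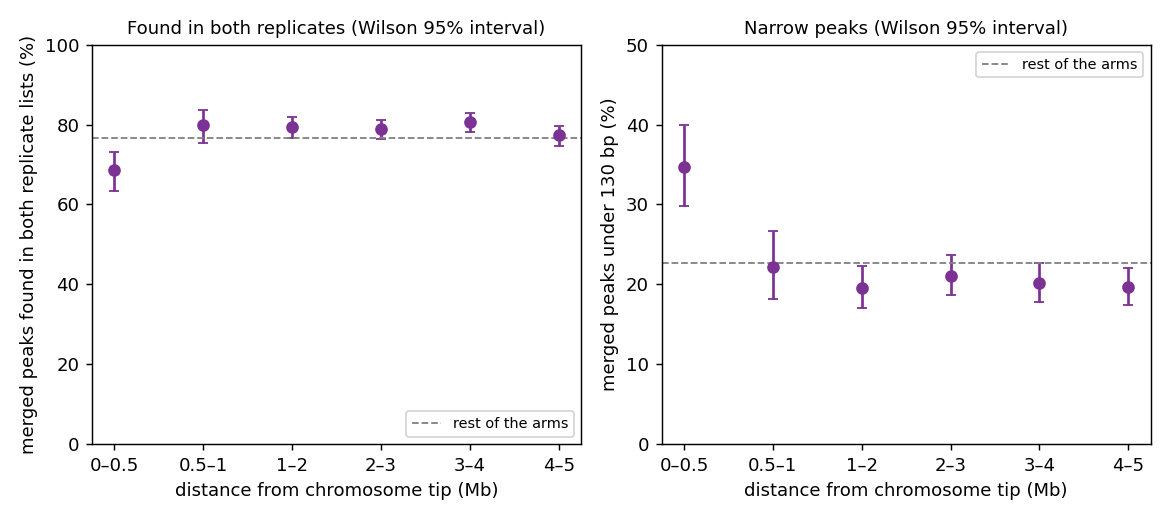
Share of merged peaks found in both replicate lists (left) and share of peaks under 130 bp wide (right), in %, by distance from the chromosome tip in Mb, with Wilson 95% intervals that cover counting error only. The dashed line is the rest of the arms. The outermost 0.5 Mb is lowest for recurrence (68.5%) and highest for narrow peaks (34.7%), and the other steps lie between 77.3 and 80.6% and between 19.6 and 22.2%.

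The strongest site of each end was present in both replicates at 19 of 19 ends, with a merged fold enrichment from 18.5 to 48.6 and a median of 22.8. Sites of the strongest class nearly all recurred, 98.9% at the ends and 99.2% in the rest of the arms. Positions are 1-based on B73 RefGen_v4. The first was a site of 149 bp on chromosome 1 at 17091 to 17239, close to the tip, whose merged fold enrichment was 48.6, with 51.0 for replicate 1 and 36.0 for replicate 2. This site ranked 7 among all 66801 merged sites. The second was on chromosome 10 at 1982188 to 1982538 (351 bp), with 35.1, 39.8 and 34.7 in the same order, and ranked 13 in each of the 3 lists. Chromosome 5 followed at 3644736 to 3645047 (312 bp), with 29.9, 33.0 and 28.2. On chromosome 1 a second site at 464221 to 464708 (488 bp) had 29.6, 38.8 and 24.0, and on chromosome 2 a site at 240535841 to 240536155 (315 bp) had 28.2, 31.4 and 25.9. Replicate 1 gave the higher value at all 5. The weakest of the 19 leading sites was at the end of chromosome 6, at 173903224 to 173903374, with 18.5 in the merged list and 16.4 in each replicate.

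Very strong sites made up nearly the same share at the ends and in the rest of the arms. A fold enrichment of at least 20, a limit chosen after the values were seen, was reached by 38 members (0.792%) and by 479 sites in the rest of the arms (0.787%). All 38 were found in both replicates, beside 98.9% of the strongest class at the ends and 99.2% of it in the rest. The 38 lay on 13 of the 19 ends. Of the 100 merged sites with the highest fold enrichment 7 were members, and of the top 1000, 68 were (6.80%), against 7.18% of all sites. At the start of chromosome 1, several of the 38 lay close together. They were at 448525 to 448682 (fold enrichment 22.4), 457033 to 457269 (26.3), 457302 to 457420 (23.5), 458538 to 458641 (20.1) and 464221 to 464708 (29.6). The end of chromosome 8 carried the widest member, 1041 bp at 176202958 to 176203998, whose fold enrichment was 9.84 (merged), 9.81 (replicate 1) and 9.75 (replicate 2, which called it as 3 peaks).

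The outermost site of an end was usually weak. Its merged fold enrichment had a median of 6.28 over the 19 ends, and at 10 of them it was found in both replicates. Of all merged sites 76.5% were found in both. At the ends the share was 30.2% in the weakest class and 73.6% in the second. At the 9 first ends the outermost summit lay between position 418, on chromosome 5, and position 134383, on chromosome 4, and at 7 of the 9 within 100 kb of the start. The start of chromosome 9 had a site at 2091 to 2187 with a fold enrichment of 10.6, and the start of chromosome 8 one at 3593 to 3673 with 11.6; both were found in each replicate. The strongest of the 19 lay at the end of chromosome 4, at 246993843 to 246993984. It reached 21.1 (merged), 15.4 (replicate 1) and 20.7 (replicate 2). At the end of chromosome 2 the outermost site had 11.5 in the merged list and 18.6 in replicate 2, and no replicate 1 peak overlapped it. The outermost site at the end of chromosome 9 had 9.51 (merged), 10.7 (replicate 1) and 8.43 (replicate 2). Distances from the far tips are approximate, since the lengths that define the ends were given to the nearest 0.1 Mb. The last peak of any list lay 39.3 kb beyond that length on chromosome 1 and 194 kb short of it on chromosome 7.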

How the data were processed

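MH-seq peak lists of 2 replicate libraries and 1 merged list were used as deposited, 3 in all. The submitters' processing notes name MACS2, with fastp 0.20.0, SAMtools 1.5 and Bowtie2, and B73 RefGen_v4. Peak-calling settings, and how the libraries were merged, were not given in the sources used here. The authors deposited for each peak a fold enrichment (a linear ratio over background), a −log10 p, a −log10 q and a score; the p and score were not used further. Read totals are not in the lists, so depth is unknown, and a more deeply sequenced library can yield more peaks at the same threshold.

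A site was placed by its summit. Ends and rest of arm were compared per chromosome in Python 3.11.15 by an exact permutation test (two-sided, all sign flips of the 10 chromosomes), with the mean of both ends where a chromosome has 2. The 5 property tests were adjusted by Benjamini-Hochberg, with a threshold of 0.05. Where an alternative gave no p for a property, as for recurrence with a single replicate list, the main merged p of that property took its place. Shares have Wilson and count ratios exact 95% intervals, which cover counting error only. Centromere positions, rounded to 1 Mb, came from general knowledge of the assembly and not from these files, so other boundaries were tried. Named sites are the strongest and the outermost of each end, the 5 strongest and the widest over all ends, and the longest stretches; sites named by another limit were chosen after their values were seen, as were the steps, distance classes and 0.5 Mb limit. The members, the 130 bp limit and the tests were chosen with earlier results of these data known. The procedures for density, width, share found in both replicates and overlap were tested on simulated peaks. Those peaks were placed at random, without the close pairs seen in the data. Fold enrichment, narrow share and close pairs were not covered by the simulation. Genes, sequence and mappability were not analysed here.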

Additional observations from a re-analysis of the deposited data

How the results depend on the processing

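The excess of sites at the ends over the rest of the arm kept its direction and its call under 14 of 15 alternatives, with log2 ratios from 0.36 (outermost 2 Mb, exact permutation p = 0.0254) to 0.80 (1 to 5 Mb from the tip, chosen after the data were seen). With the arm trimmed by 20 Mb beside the centromere it was 0.53. The exception, -0.012, took only the next 5 Mb as the rest of the arm, which drops the sparse inner arm by construction. Against those next 5 Mb the narrow share differed by 0.55 points. With ends of 2 Mb the narrow share differed by 1.49 points, recurrence by -0.33 points, width by -16.2 bp and close pairs by -2.77 points (both with an adjusted exact permutation p of 0.0488), and last against first ends by -0.10. Close pairs within 5 kb differed by 1.16 points. The cause of these changes was not tested. Leaving out either replicate gave -0.035 to 0.00088 for log2 fold enrichment, -2.35 to 4.95 bp for width, -3.88 to -0.52 points for narrow sites, -1.94 to -0.77 points for close pairs, 0.66 to 0.73 for density and 0.08 to 0.10 for last against first ends. Recurrence between replicates at the ends became 67.7 and 79.8% with an overlap of 50% of both peaks, 61.2 and 72.2% with summits within 50 bp, 75.6 and 89.9% with −log10 q of at least 10, and 82.2 and 81.9% with equal numbers of strongest peaks, for replicates 1 and 2. In the rest of the arms these pairs were 63.0 and 77.6%, 57.6 and 71.0%, 75.3 and 89.7%, and 79.9 and 81.3%. Recurrence needs both libraries and has no value with one left out. No paired analysis was possible because there is 1 group. Without depth, a missing peak near the fold enrichment limit of 5 does not show a closed site.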
